A study of Mus musculus with 4 samples.

Results

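RNA polymerase II (Pol II) ChIP-seq peaks of sorted brain endothelial cells (ECs) were merged across 4 libraries, and the regions described here are those far from any annotated start site that held a peak of every library. Peaks on chromosomes 1 to 19 and X that shared at least 1 bp were chained into 333834 merged regions, of which 272848 lay more than 3000 bp from every annotated mouse transcription start site (TSS) and are called distal. Of the distal regions, 1676 held a peak of all 4 libraries (0.614%), and these are the members. They were chosen by the measured peaks themselves, so their presence in all libraries is a description and supports nothing. A further 462 regions with a peak of every library lay within 3000 bp of a TSS and were left out.

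The study compared ECs of mice that carry the endothelial CDH5-CreERT2 driver, given as the CdH5CRE genotype (WT Cre), with EC-K4KO mice. In EC-K4KO mice the same driver deletes floxed Klf4 in ECs after Cre induction at 8 wk of age. Tamoxifen was used for induction, and the study states that its control and knockout groups were given the same treatment. Klf4 encodes a zinc finger transcription factor. The 2 old WT Cre libraries came from mice of 20 to 23 mo and the 2 young EC-K4KO libraries from mice of 4 to 6 mo, each from 200000 flow-sorted brain ECs. Genotype and age changed together, so their parts cannot be told apart, and the labels do not say whether a library pooled animals.

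Most of what follows concerns repeats. Distal Pol II is usually looked for at enhancers, where polymerase gives short unstable transcripts. It is also found at transposable elements. Full-length mouse LINE-1 elements start with a promoter built of tandem units of about the same length. Further along the element lies a long open reading frame for the protein that copies it. Other tandem repeats, such as the AT-rich major satellite beside mouse centromeres and the hexamer of telomeres, occur in far more copies in the animal than in the assembled genome. Short CA runs are scattered over the genome. A short read from such a sequence cannot always be placed at 1 copy.

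The sequences that stand for the main kinds of member are given first, in mm10 coordinates and on the plus strand. The first pair are single tandem units of the largest family. In each, the unit that follows is identical over its whole length. Capitals in the second unit mark the letters GCCATCTT, which read AAGATGGC on the other strand, the core that the factor YY1 is known to bind. The first unit holds none of the 9 motifs searched.
Subfamily 1, chr1:15742886-15743093, 208 bp: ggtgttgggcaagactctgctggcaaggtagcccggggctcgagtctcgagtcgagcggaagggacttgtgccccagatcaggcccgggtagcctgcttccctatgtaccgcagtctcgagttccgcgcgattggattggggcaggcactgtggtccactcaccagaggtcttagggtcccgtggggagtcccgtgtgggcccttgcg
Subfamily 2, chr1:20432371-20432582, 212 bp: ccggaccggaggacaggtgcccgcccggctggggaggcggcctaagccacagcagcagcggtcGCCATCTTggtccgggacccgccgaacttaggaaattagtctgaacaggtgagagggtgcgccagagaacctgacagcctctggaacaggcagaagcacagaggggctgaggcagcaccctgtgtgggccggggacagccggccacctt
The next pair are the members with the strongest peaks, both AT-rich. Capitals mark the letters GAAAA in the first and their reverse complement TTTTC in the second, which recur 13 and 4 times.
Member nearest to Rab10, chr12:3109869-3110120: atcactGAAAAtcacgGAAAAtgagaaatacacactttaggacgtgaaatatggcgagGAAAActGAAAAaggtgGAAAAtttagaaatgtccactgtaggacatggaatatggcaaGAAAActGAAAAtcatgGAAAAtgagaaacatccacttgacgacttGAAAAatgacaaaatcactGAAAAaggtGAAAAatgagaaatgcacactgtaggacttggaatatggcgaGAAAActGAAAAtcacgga
Member inside Chl1, chr6:103649049-103649292: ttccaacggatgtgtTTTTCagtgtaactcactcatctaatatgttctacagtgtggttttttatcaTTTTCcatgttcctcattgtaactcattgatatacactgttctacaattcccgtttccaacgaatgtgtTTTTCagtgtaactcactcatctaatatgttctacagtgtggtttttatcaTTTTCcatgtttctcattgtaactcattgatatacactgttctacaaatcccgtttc
The last is the 300 bp at the mean summit of a member counted as single-copy below, beside Cdh5, the gene of VE-cadherin. That count is a median over short words of its sequence, and 21.0% of the member's bases are marked as repeat. Lower case in the sequences printed here does not show such marking. Capitals mark letters of the AP-1 motif TGANTCA and of the ETS motif CAGGAAGT.
Member nearest to Cdh5, chr8:104085240-104085539: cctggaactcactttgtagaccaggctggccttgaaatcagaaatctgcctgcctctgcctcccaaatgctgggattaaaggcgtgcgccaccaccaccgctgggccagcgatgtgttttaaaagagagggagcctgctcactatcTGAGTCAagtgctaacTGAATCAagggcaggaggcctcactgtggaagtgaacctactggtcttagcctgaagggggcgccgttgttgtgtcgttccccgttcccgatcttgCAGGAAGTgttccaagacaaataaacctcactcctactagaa

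The old WT Cre and young EC-K4KO libraries are called old and young below, and values are given in the order of their replicate numbers. Depth differed, with 65734178 and 27455452 fragments in the old libraries and 35227929 and 22705175 in the young ones. The lists ran from 35638 peaks in young EC-K4KO replicate 1 to 235591 in young EC-K4KO replicate 2, the library with the fewest fragments. The members held between 1767 and 1808 peaks of each library. Of a library's peaks on the chromosomes used for merging, this was 0.761% in young EC-K4KO replicate 2 and from 2.25 to 5.12% in the others. Of the 4526 distal regions with a peak in 3 libraries, 2124 lacked young EC-K4KO replicate 1 and 343 lacked young EC-K4KO replicate 2. Of 24 endothelial marker genes, 6 and 6 had a promoter peak (no more than 1500 bp from a TSS) in the old libraries, and 1 and 14 in the young ones. These shares (25, 25, 4.17 and 58.3%) were close to or under those over all 21728 protein-coding genes (25.8, 24.7, 10.7 and 68.1%). Markers of other brain cells had promoter peaks too, at 4, 2, 2 and 8 of 12 mural genes, 4, 2, 1 and 6 of 10 astrocyte genes, 2, 2, 1 and 6 of 10 neuronal genes, 1, 1, 1 and 8 of 10 oligodendrocyte genes and 3, 1, 0 and 7 of 10 microglial genes. The Klf4 promoter held one in each of the young libraries and in none of the old. A promoter peak does not measure the deleted part of the gene and does not check the genotype.

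The members were mostly repeat sequence. Soft-masking, the lower case letters that mark repeats in the assembly, covered at least 50% of the bases in 84.4% of members (95% exact binomial interval 82.6 to 86.1%), against 68.1% of distal regions with peaks in 3 libraries, 46.4% with 2 and 31.2% with 1. The whole region was masked in 662 members (39.5%), and 4.24% had no masked base. Of all distal sequence in the assembly, 35.2% was masked. Intervals here cover counting error only, since copies of a repeat are not independent.

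How often the sequence of a region recurs was counted as the median number of assembly positions that hold its 24-base words. A member's words occurred a median of 727 times, and 1285 members (76.7%) had a count of 10 or more. Such regions were 55.3% of those with peaks in 3 libraries, 29.6% with 2 and 15.1% with 1. Regions with a median count of 1, called single-copy, ran the other way, although part of such a region can still recur. Single-copy regions made up 77.0% of distal regions with a peak in 1 library, 59.0% with 2, 31.1% with 3 and 8.59% of the members (144 regions). The plot of shares by number of libraries shows that each of these measures moved in 1 direction at every step from 1 to 4 libraries.

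**Figure D1:**
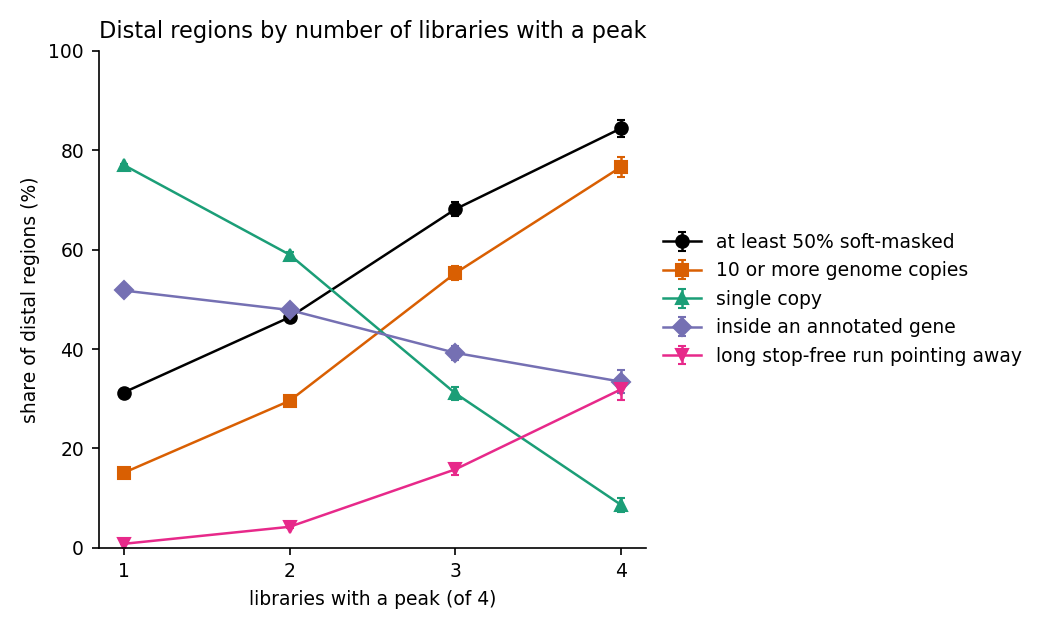
Share of distal regions (%) with each feature, by the number of libraries with a peak, with 95% exact binomial intervals as bars. From 1 to 4 libraries, the share at least 50% soft-masked goes from 31.2 to 84.4%, and the single-copy share from 77.0 to 8.59%.

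An annotated gene body overlapped 560 members (33.4%, interval 31.2 to 35.7%), against 39.2% of regions with 3 libraries, 47.8% with 2 and 51.8% with 1. Genes covered 45.5% of distal sequence. The share differed with copy number. It was 51.4% (interval 42.9 to 59.8%) in single-copy members, close to that of regions with a peak in 1 library, and 30.3% in members with 10 or more copies. An exon was overlapped by 2.80% of members and coding sequence by 2.15%, against 8.79 and 6.79% of regions with a peak in 1 library. Among single-copy members these were 17.4 and 16.7%, or 25 and 24 of 144. Only 4.24% of members lay within 3000 bp of the 3′ end of a gene, against 8.09% of regions with 1 library.

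Members were wide. Their median width was 725 bp, with quartiles of 458 and 1047 bp and a range from 174 to 3773 bp. Median width was 451, 330 and 186 bp in distal regions with peaks in 3, 2 and 1 libraries. A region that must hold peaks of more libraries is wider by construction, so width is given with no test. In 1400 members at least 1 base lay under a peak of all 4 libraries, over a median of 204.5 bp, while in the other 276 the peaks only chained. In the members of 10 or more copies the median width was 811 bp and in single-copy members 485.5 bp.

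Alignment of the members to each other placed them in 274 sequence families, joined where 2 members aligned over at least 150 bp at 80% identity or more. The largest family held 1078 members (64.3%), on all 20 chromosomes, and 224 members stood alone. The largest family was GC-rich, with a median GC content of 62.5%, and its words occurred a median of 2385 times. A tandem period between 100 and 400 bp was found in 890 of its members, with a median of 208 bp. At 90% identity the family parted into a subfamily of 619 members with a median period of 208 bp, and 1 of 347 with a median period of 212 bp. These are subfamilies 1 and 2, whose units are printed above.

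On 1 side of many of these members lay a long open reading frame. In 529 of the 1078 (49.1%) a run of at least 1200 codons without a stop, pointing away from the region, lay within 8 kb, and in 470 of these it was exactly 1300 codons long. It began a median of 2418 bp from the far edge of the region. A run of that length pointing toward the region was found in 10 members (0.928%). Over all members the share with an outward run was 31.9%, against 15.8% of distal regions with peaks in 3 libraries, 4.23% with 2 and 0.803% with 1. Inward runs were found in 1.07% of members and from 0.507 to 0.619% of the others. A GC-rich tandem promoter followed by a reading frame of fixed length is the arrangement known for full-length mouse LINE-1 elements. No repeat annotation was used here, so the family is named only by its features.

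**Figure D2:**
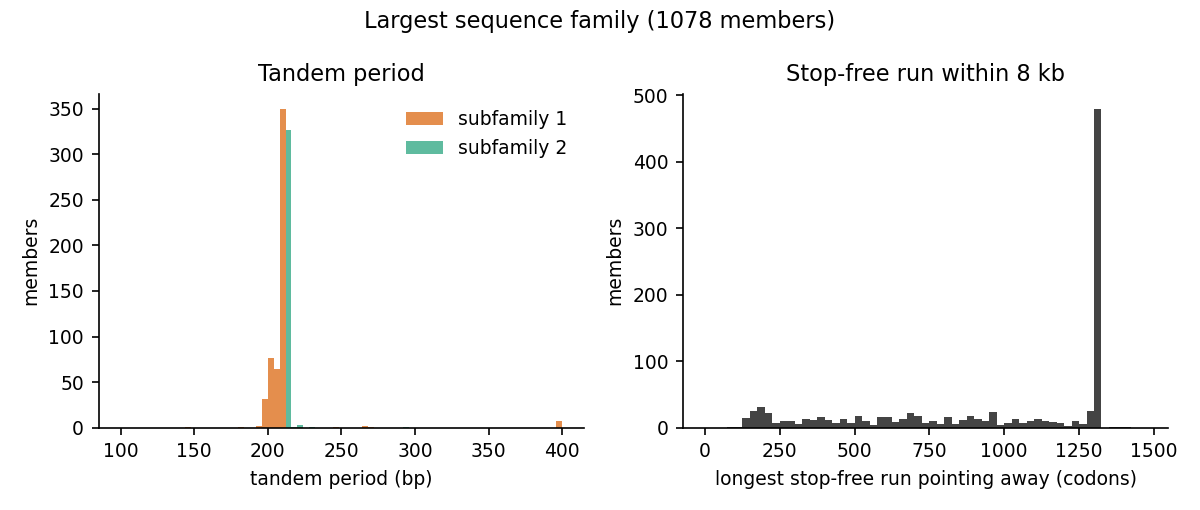
Left, tandem period (bp) of members of subfamilies 1 and 2 of the largest family, with bars counting members. Right, the longest stop-free run (codons) that points away from each of the 1078 members within 8 kb, where 470 members share a run of 1300 codons.

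The 2 subfamilies differed in the YY1 letters. AAGATGGC, searched on both strands in the 300 bp at the mean summit, was found in 312 of 347 members of subfamily 2 (89.9%, interval 86.3 to 92.9%) and in 80 of 619 of subfamily 1 (12.9%, interval 10.4 to 15.8%). Over the windows of all other distal regions the share was 4.94%, and in single-copy members it was 2 of 144. The members of a subfamily are copies of 1 sequence, so their matches are not separate events. The other 8 motifs were each found in at most 2.09% of member windows. The AP-1 motif TGANTCA was in 1.07% of members, against 7.53% of other distal regions, and in 8 of 144 single-copy members (5.56%) against 8.68% of other single-copy distal regions. For KLF factors the letters CCACACCC were in 2.09% of members and 3.48% of other distal regions. They were in 7 of 144 single-copy members (4.86%, interval 1.98 to 9.76%) against 3.31% of other single-copy distal regions. The ETS letters CAGGAAGT were in 0.656% of members against 2.28%, and ACTTCCGG in 0.239% against 0.341%. The CRE letters TGACGTCA were in 0.477% of members against 0.492%. The FOX letters TGTTTAC were in 1.73% of members against 3.69% of other distal regions. The GATA letters AGATAAG were in 0.835% of members against 2.86%. The NRF1 letters GCGCATGC were in 0.298% of members against 0.999%.

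The members were a small part of the copies of this family. Stretches that shared at least 100 of the family's 24-base words were found at 18605 distal places, and 968 of these (5.20%) held a member. A peak of at least 1 library lay on 62.2% of them, from 17.8% in young EC-K4KO replicate 1 to 47.0% in young EC-K4KO replicate 2. The words were taken from the members, and a copy that holds a member has a peak in every library by the choice of members, so shares are given for the copies without a member too. At copies with 100 to 300 such words, 18.1 and 12.4% held a peak of the old libraries, and 8.47 and 27.5% of the young ones. At the 701 copies with 1200 or more, the shares were 80.6, 87.6, 71.2 and 98.9%, and 55.2% held a member. Of these 701, 314 held no member, and among them the shares were 56.7 and 72.3% in the old libraries and 35.7 and 97.5% in the young ones. At the 10937 copies without a member that had 100 to 300 words, they were 17.4, 11.7, 7.67 and 26.8%. In each library the share without members was also higher at each step up in the number of shared words. In young EC-K4KO replicate 1 it stayed under 50%. Words were counted by position, so a copy spans at least as many bases as it has words. Copies with more words thus have more room for a peak, and the part of length was not tested.

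**Figure D3:**
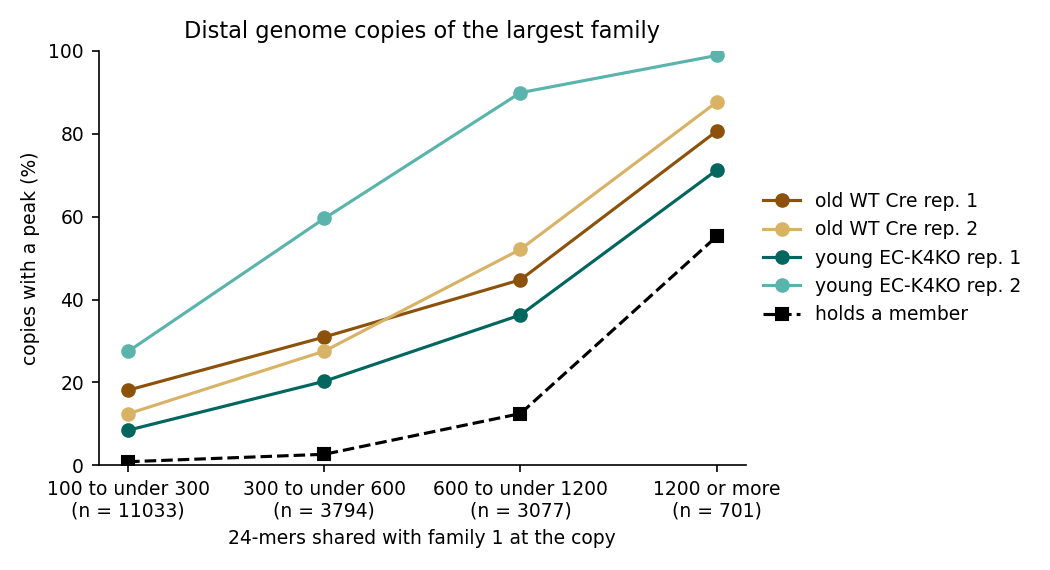
Distal genome copies of the largest family, binned by the number of 24-base words shared with its members (x axis, number of copies in brackets), against the share (%) with a peak in each library and the share that holds a member. Copies that hold a member are included and have a peak in every library by the choice of members. At the 701 copies with the most shared words the shares are between 71.2 and 98.9%. A copy spans at least as many bases as its counted words, so those with more words have more room for a peak.

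Orientation within genes could be read for 138 oriented members of the family that lie in a protein-coding gene. The long reading frame ran on the strand of the host gene in 52 (37.7%, interval 29.6 to 46.3%) and on the opposite strand in 86. Of the family, 29.1% lay in a gene, against 41.1% of the other members.

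The level of a member in a library is given as its highest pileup, the number of fragments over the summit, per 1000000 fragments of that library (per-million pileup). Over all members its median was 0.380 and 0.583 in the old libraries, and 0.454 and 0.881 in the young ones. Between the quartiles, members ran from 0.304 to 0.654 in old WT Cre replicate 1 and from 0.705 to 1.32 in young EC-K4KO replicate 2. Most members thus had low peaks, with a few very high ones. In the largest family the medians were 0.335, 0.546, 0.426 and 0.859 in the same order. In each group 1 replicate was lower and 1 higher, and the groups overlapped.

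Between the groups, 444 members (26.5%, interval 24.4 to 28.7%) were higher in both young EC-K4KO libraries than in both old WT Cre libraries, and 59 (3.52%) were lower in both. Over all 2138 regions with peaks in all 4 libraries the same shares were 27.0% and 4.72%. That background contains the members. In the other 462 regions, near a TSS, 134 were higher in both young libraries and 42 (9.09%) in both old libraries, and after division by library medians, as below, the shares were 17.1% and 18.6%. With 2 libraries against 2, no exact permutation p below 0.3333 can be had, and the counts carry no test. In bulk libraries, signal in more cells and more signal per cell cannot be told apart. The young count rested on the scale. When each library was divided by its median over the regions with all 4 peaks, 13.9% of members were higher in both young libraries and 16.8% in both old libraries. By fold enrichment over the local background of each library these were 19.9% and 7.94%, against 20.1% and 9.31% of the regions near a TSS. On the pileup scale, 210 members of the largest family (19.5%) were higher in both young libraries and 12 (1.11%) in both old libraries, but after that division 160 (14.8%) and 158 (14.7%), and by fold enrichment 240 (22.3%) and 39 (3.62%). In single-copy members the counts were 61 and 11 of 144, after that division 20 and 29, and by fold enrichment 28 and 18.

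On the pileup scale, most members higher in both old libraries were in 2 small families. Of the 59, 28 were in family 2, with a median of 30.3% of bases in short tandem repeats, 12 in the largest family and 11 in family 10, the AT-rich family of the Rab10 member above. After division by library medians the order changed, with 158 of 282 in the largest family, 53 in family 2 and 11 in family 10. On the pileup scale all 11 members of family 10 were higher in both old WT Cre libraries, also after division by library medians. By fold enrichment 7 of 11 were, and 3, the Rab10 member and a pair near Sfi1, were higher in both young libraries. Their median level was 12.6 and 14.9 in the old libraries, and 4.23 and 2.51 in the young libraries. This family had a median GC content of 37.3%, the lowest of the 12 families with 10 or more members. Its members lay on 6 chromosomes, 6 of them within 1 Mb of the assembled start of a chromosome. One was in Ank1, the gene of ankyrin 1, where the level was 11.3 and 13.0 in the old libraries and 3.58 and 2.51 in the young libraries. Another was in Mdga2, which encodes a synaptic adhesion molecule, with 75 and 76.3 against 29.1 and 14.2. By fold enrichment the Ank1 member was also higher in both old libraries, while the groups overlapped at the Mdga2 one, with 31.5 and 32.8 against 35.4 and 32.4.

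The strongest member, chr12:3109869-3110120, lay 199849 bp from Rab10, the nearest protein-coding gene, which encodes a small GTPase of membrane traffic. Its per-million pileup was 42999 and 49968 in the old libraries and 12396 and 6685 in the young libraries. At its summit it thus took 4.30 and 4.997% of all fragments of the old WT Cre libraries, and 1.24 and 0.668% of the young EC-K4KO libraries. The groups did not overlap. By fold enrichment the direction turned, with 55.2 and 59.4 in the old libraries and 60.5 and 64.5 in the young ones. At most 125250 fragments of up to 500 bp that differ in start or end can cover 1 base, and 500500 of up to 1000 bp. The pileups, 2826510, 1371890, 436699 and 151774 fragments in the order given, were above the first bound in all 4 libraries and above the second in both old libraries, so at these lengths some of the fragments counted had the same ends. The study states that duplicates were removed. Next was chr6:103649049-103649292, in an intron of Chl1, the gene of a neural adhesion molecule, with 2485 and 3477 against 317 and 159.5. Its pileup in old WT Cre replicate 1, 163334 fragments, was above the first bound too. By fold enrichment the groups overlapped there, with 50.7 and 55.6 against 54.98 and 58.6. It too was AT-rich, at 34.0% GC, and stood alone as a family.

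A CA-rich subgroup of family 2 also had higher levels in the old libraries. At 90% identity, this subgroup of 24 members of family 2 was parted from the rest. Runs of the dinucleotide CA, or TG on the other strand, made up 67.2% of its bases and were the leading short repeat in 24 of 24. Its median level was 1.96 and 2.29 in the old libraries, and 0.724 and 0.617 in the young ones. In 20 of 24 both old libraries were above both young ones, and in none the reverse. After division by library medians, and by fold enrichment, the count was 23. A second subgroup of family 2, of 28 members with a repeat of 5 bases (ACAGC, 42.7% of bases), had no such member on the pileup scale. Its medians were 2.04, 2.55, 2.00 and 4.67, and 0 of 28 were higher in both old libraries, against 11 after division by library medians and 2 by fold enrichment. In the other 30 members of family 2, CA was the leading unit in 26 but made up 22.7% of bases. Their medians were 0.586 and 0.728 in the old libraries and 0.426 and 0.727 in the young ones, and 8 were higher in both old libraries and 2 in both young ones. After division by library medians these counts were 19 and 0, and by fold enrichment 12 and 0.

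On the pileup scale, the share higher in both old libraries was lower in each more GC-rich class. From under 45% GC, in steps of 5 points to 65% or more, it was 35.3% of 51 members, 17.6% of 108, 3.87% of 336, 2.05% of 293, 0.472% of 636 and 0% of 252. The share higher in both young libraries had no such order, at 25.5, 35.2, 46.4, 32.1, 17.9 and 11.5%. After division by library medians the old shares were 41.2, 26.9, 14.3, 19.5, 14.3 and 14.3%, and the young ones 1.96, 0.926, 9.23, 18.1, 18.2 and 12.3%. By fold enrichment the old shares were 31.4, 31.5, 13.1, 8.19, 1.73 and 1.59%, and the young ones 25.5, 13.9, 17.0, 17.4, 23.7 and 18.3%. The part of base composition in the group differences was not tested.

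Of the other families, 3 are described. The 15 members of family 8 all lay on chromosome 8, each within 100 kb of another of the family, and had a tandem period of 156 bp. Their medians were 0.867 and 0.801 in the old libraries and 1.14 and 2.11 in the young libraries, and 13 of 15 were higher in both young libraries. After division by library medians the count was 6, and by fold enrichment 4. Family 4, of 25 members, had 19 within 1 Mb of a chromosome start. Its medians were 5.23 and 3.35 against 6.81 and 8.24, and 25 of 25 were higher in both young libraries. After that division 0 of 25 were, and by fold enrichment 5 of 25, so this direction depended on the scale. The 17 members of family 7 were built of the telomere hexamer (71.7% of bases) and lay on 12 chromosomes. Their medians were 1.60 and 1.49 in the old libraries and 3.07 and 1.67 in the young libraries, the replicates of the young group differing by more than the groups.

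**Figure D4:**
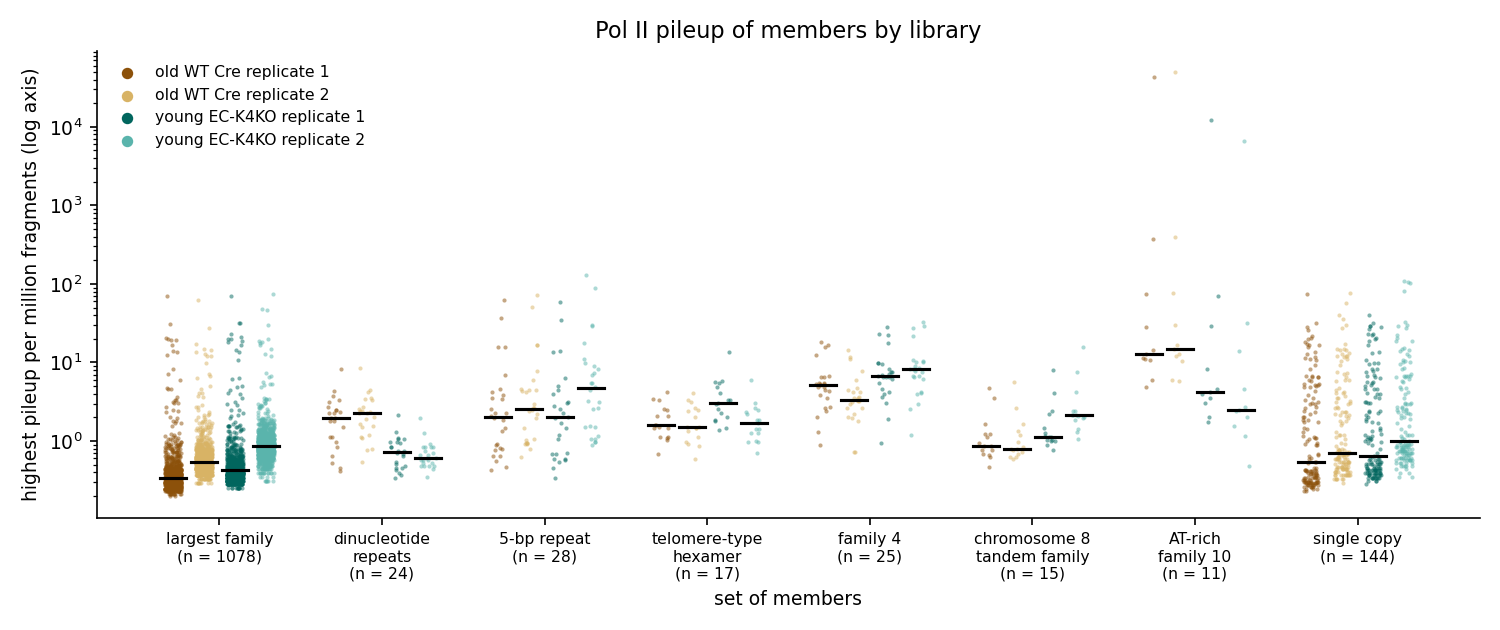
Highest pileup per 1000000 fragments (log axis) of each member in the 4 libraries, for 7 sequence sets and the single-copy members, with black bars at medians. Only the dinucleotide repeats and the AT-rich family have both old WT Cre medians above both young EC-K4KO medians, at 1.96 and 2.29 against 0.724 and 0.617, and 12.6 and 14.9 against 4.23 and 2.51.

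Members were spread over all chromosomes, from 0.436 per Mb on chromosome 2 to 1.08 per Mb on chromosome 8, which held 137. Another member lay within 10 kb of 11.8% of members and within 100 kb of 27.7%. Chaining at 100 kb left 1211 members alone and put 208 (12.4%) in 29 groups of 4 or more. The largest group, 32 members over 446 kb, spanned chr8:20259153-20704674 with Gm15319 and Gm21119 as the nearest genes. The next, of 14 members over 73.6 kb, lay at Sfi1, beside the assembled start of chromosome 11. A group of 10 was found at the start of chromosome 17, and another of 10 near Pdia4 and Ezh2 on chromosome 6. The share of members within 1 Mb of the assembled start of a chromosome, which is its centromeric end, was 4.24%, against 0.744% of distal regions with a peak in 1 library, and 2.68% lay within 1 Mb of the other end, against 0.660%.

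Of the 10 genes that held the most members, 4 were lincRNAs, C230088H06Rik with 15, Gm26624 and Gm26573 with 12 each, and Gm26804 with 7. Among protein-coding genes Sfi1, whose product binds centrin at the centrosome, held 10 in 61.6 kb, 8 of them single-copy and 5 over an exon. Tmem267 held 6, C130026I21Rik 4, and Zfp978 and Sprr2a2 3 each. The antisense gene Gm21847 held 3. Ties were broken by members per kb of gene, so further genes with 3 members were left out. In all, 1227 protein-coding genes were nearest to a member by TSS, and 973 of them to 1 member only.

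Of the 21728 protein-coding genes, 1312 (6.04%) were nearest to a member or held one. Their median length was 43.9 kb, against 17.4 kb over all. Of 30 endothelial transcription factors 4 were among them, of 27 signalling receptors and ligands 4, of 24 barrier junction and transport genes 3, and of 30 stress, senescence and inflammation genes 1. Of 20 long neuronal genes, with a median length of 1502 kb, 12 were among them. Of the cell type markers, 4 of 24 endothelial, 2 of 10 oligodendrocyte and 1 of 10 microglial genes were among them, and 0 of 12 mural, 0 of 10 astrocyte and 0 of 10 neuronal ones. Most of the 35 members at the 5 lists before the markers were of the largest family, with 15 of 19 at the neuronal genes. Longer genes have more room for a member, and the part of length was not tested.

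At the endothelial transcription factors there were 7 members, 5 of them in the largest family. The Erg member, in an intron 14096 bp from its TSS, had 0.304 and 0.656 in the old libraries and 0.454 and 0.749 in the young libraries. Erg encodes an ETS factor that maintains endothelial identity. The groups overlapped. The member nearest to Sox17, an arterial regulator, had 0.411, 0.546, 0.426 and 1.41, also overlapping. Mecom, which encodes a zinc finger factor, had 3 members. At its single-copy one, chr3:30385175-30385917, in an intron, the levels were 0.259 and 0.692 against 0.397 and 0.661. At the single-copy member 67905 bp from Ets1, chr9:32764289-32765066, they were 0.274 and 0.364 against 0.596 and 0.749, both young libraries above both old ones. Neither single-copy window held any of the 9 motifs.

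Among receptors and ligands, the member 11205 bp from Adgra2, a co-receptor for Wnt7 in brain ECs, had 1.43 and 1.75 in the old libraries and 0.397 and 0.793 in the young libraries. It belonged to the short-repeat family 2. On the pileup scale, both old libraries were above both young ones in 34.1% of that family and in 3.52% of all members. Of the 16 members at endothelial, barrier and stress genes, the Adgra2 member was the only one with this direction, also after division by library medians. By fold enrichment the Hey1 member had it too. At Hey1, a Notch target, the level was 1.66, 2.08, 1.59 and 3.35. The groups overlapped there and at the members nearest to Nrp2, Ednrb and Adamts1. At Adamts1 division by library medians put both young libraries above both old ones, at 0.938 and 1.10 against 0.800 and 0.812, and at Nrp2 fold enrichment did, at 4.14 and 6.53 against 3.57 and 4.10.

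Barrier and transport genes had 4 members, 3 of them single-copy. Beside Cdh5, 15780 bp from its TSS, the member shown above had 0.243 and 0.801 in the old libraries and 1.05 and 2.51 in the young libraries. The young libraries were both higher, but the replicates of each group differed more than 2-fold, and by fold enrichment the groups overlapped, with 3.19 and 4.48 against 4.08 and 4.44. These values rest on 16, 22, 37 and 57 fragments. The member in Abcg2, which encodes an efflux transporter of the blood-brain barrier, had 0.913 and 0.765 against 1.45 and 1.19, from 60, 21, 51 and 27 fragments. Divided by library medians these were 2.40 and 1.31 against 3.19 and 1.29, and the groups overlapped, while by fold enrichment both young libraries were higher, with 15.4 and 11.8 against 11.5 and 8.20. On the pileup scale both young libraries were higher in 42.4% of all single-copy members and in 26.5% of all members. Of the 3 single-copy members at Ets1, Abcg2 and Cdh5 with this direction, the one at Ets1 had it on all 3 scales, from 18, 10, 21 and 17 fragments. So did the fourth member of this list, a copy of the largest family 340310 bp from Cdh5, with 0.243 and 0.328 in the old libraries and 0.369 and 0.837 in the young ones, from 16, 9, 13 and 19 fragments. In Abcc4, another efflux transporter, the level was 0.365 and 0.546 against 0.426 and 0.661, and the groups overlapped.

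**Figure D5:**
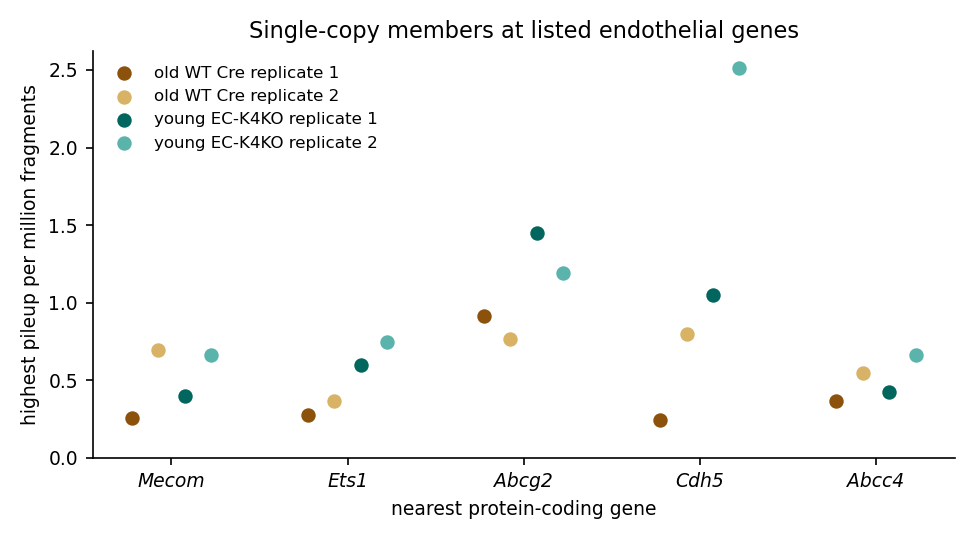
Highest pileup per 1000000 fragments in each of the 4 libraries at the 5 single-copy members whose nearest protein-coding gene is on the endothelial or barrier lists. At Ets1, Abcg2 and Cdh5 both young EC-K4KO points lie above both old WT Cre points, and at Mecom and Abcc4 they overlap. Those at Abcg2 overlap after division by library medians, and those at Cdh5 by fold enrichment.

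The 144 single-copy members were few and uneven. They were nearest to 119 genes, and 90 stood alone as a family, while 18 were in family 4, 12 in the largest family and 8 in family 10. Of the 144, 28 lay within 1 Mb of an assembled chromosome start, 10 of these on chromosome 11 and 8 on chromosome 17. Their count is of copies in the assembly and not in the animals. The median gap between their summits in 2 libraries was 26 to 46.5 bp over the 6 library pairs, against 137.5 to 159 bp in the largest family. The median level of single-copy members was 0.548 and 0.710 in the old libraries and 0.639 and 0.991 in the young libraries. By the smallest −log10 q over the libraries, the strongest 3 were in the Gtpbp4 neighbourhood (chr13:9011686-9012168), in an intron of Cdk8 and 88465 bp from Axin2. Cdk8 is a kinase of the Mediator complex, and Axin2 is a Wnt target. At Cdk8 the levels were 25.6, 40.4, 26.9 and 103. At Axin2 they were 21.9, 36.3, 28.9 and 106. Both were highest in young EC-K4KO replicate 2, and the groups overlapped.

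The other members among the 10 strongest, ranked by the smallest −log10 q over the libraries, lay near Ly6c2, Tmem125, Tcp10c, Aadac and Filip1l. At chr15:75085482-75087024, near Ly6c2, the level was nearly the same in every library, at 70.8, 63.2, 69.9 and 74.6. At the other 4 it ran from 24.6 to 147 and was highest in young EC-K4KO replicate 2. Fold enrichment over local background at the 10 strongest ran from 13.6 to 64.5.

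At the distance limit, the members nearest to a TSS lay 3006, 3013 and 3034 bp away. The regions with all 4 peaks just under the limit lay 2946, 2988 and 2997 bp away. The last, chr11:3184240-3186055, had 5.23, 4.55, 8.43 and 8.32, and the nearest member, chr13:98495007-98496021, had 2.28, 2.44, 1.05 and 0.837.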

How the data were processed

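Pol II ChIP-seq was measured in 4 libraries, a pair of old WT Cre and a pair of young EC-K4KO ones, grouped by the labels. Per the study's methods, the authors mapped trimmed reads to mm10 (Bowtie2), discarded duplicates and called peaks per library, with MACS2 2.2.7.1 and q of at most 0.01 per the file headers, with no control library. A mapping quality filter for these libraries is not given in the sources used here. The authors deposited for each peak a pileup (a coverage signal in fragments), a fold enrichment (a ratio to local background), −log10 p-values and q-values, none normalized between libraries. The narrow peak and summit lists hold the same peaks and were not used. Pileups were divided here by the fragments of their library. Called peaks started at pileups of 13, 8, 9 and 7 in the 4 libraries.

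Regions were merged in Python 3.11.15 (numpy 2.4.6, pandas 2.3.3, scipy 1.17.1) and annotated with GENCODE M21 basic on GRCm38. Families came from blastn 2.17.0 (150 bp, 80% identity, single linkage, which also drew 12 single-copy members into the largest family). Named are the 10 members with the highest smallest −log10 q, the 10 genes holding most members, and members at listed genes. The CA, 5-base and AT-rich sets, the families with 10 or more members, Chl1, Ank1 and Mdga2 were singled out after their values were seen. The members and lists were chosen with earlier results of these data known. No test was run over regions. The merging and copy steps were tested on simulated data. The study's methods call the replicates biological, while the labels name no animals.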

Additional observations from a re-analysis of the deposited data

How the results depend on the processing

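No paired analysis was possible because no result comes from a test and same-numbered libraries of the groups share no animal or batch in the labels. Of 86 recomputed values, 38 stayed within 1.5 times (counts) or within the 95% interval of the main value and 48 moved. With each library left out, the number of regions in the other 3 ran from 1946 to 3793, nearest genes from 1400 to 2564, the masked share from 74.5 to 82.9%, the gene body share from 34.0 to 37.7%, the share with another within 10 kb from 9.49 to 13.8% and median width from 540 to 578 bp. Single-copy regions were then 12 to 21.9%.

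At q of at most 1e-05 there were 707 regions nearest to 517 genes, 76.9% masked, 20.5% within 10 kb of another, 627 bp wide and 35.4% higher in both young libraries. With lists of equal length there were 810 regions and 615 genes, 80.7%, 16.9%, 753 bp and 30.5%. Beyond 10000 bp the gene body, masked, 10 kb and young-higher shares were 30.9, 87.2, 9.69 and 24.4%. With protein-coding TSS alone the first 3 were 36.9, 81.4 and 14.5%. A base common to all 4 libraries gave a width of 670.5 bp. Other definitions gave 26.6% in protein-coding genes, 75.2% masked over 80%, 27.7% within 100 kb, 204.5 bp under all 4 libraries, and 19.9% (fold enrichment) or 13.9% (library medians) higher in both young libraries. The comprehensive GENCODE annotation, the limit to members under 10 copies, the family copies without a member, and the library medians and fold enrichment for single members and sets were chosen after seeing the data. The annotation moved none of the 7 values. The limit to under 10 copies left 391 regions at 278 genes, 43.7% in genes, 48.8% masked, 24.3% within 10 kb, 501 bp wide and 45% higher in both young libraries. Where a cause is not in the construction of the alternative, it was not tested. The depth limits values near the lowest called pileups.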
